A study of Mus musculus with 6 samples.

Results

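The transcription factors of innate lymphoid development measured here were Id2, Id3, Nfil3, Gata3, Tcf7, Tox, Ets1, Runx3 and Bcl11b, followed across sorted cells of spleen, intestine and skin. The members were all array probes that carry 1 of these 9 symbols, which gave 14 of the 46643 probes. Of these, 11 carried the current symbol and 3 an older one that the reference gene table translates, Idb2 (2 probes) for Id2 and Idb3 for Id3. A probe was called detected at a detection p-value under 0.01, and probes detected on both arrays of at least 1 tissue were tested. This kept 12 of the 14 probes and all 9 genes, among 18187 probes and 13455 genes tested in all.

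The cells were sorted by surface staining as CD45+, CD3-, NKp46+ and, as the labels spell it, NK11+, and the submitters call them NK cells. NKp46 is carried by natural killer (NK) cells, which it activates, and by some other innate lymphoid cells. The spleen group, the intestine group (gut lamina propria) and the skin group each held 2 samples, and all 3 came from 12-week-old male RAG-2-KO mice of the strain C57BL/6. RAG-2 is needed to rearrange antigen receptor genes, so animals of every group, the spleen group included, lack T and B cells; the labels name no treatment, and no sample with intact RAG-2 was compared. Labelled RNA of each sample was hybridised to 1 Illumina array. The labels do not say whether the 2 samples of a tissue came from separate mice or pools, so the p-values rest on sample-to-sample spread that may be technical only.

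Innate lymphoid cells arise from lymphoid progenitors without antigen receptor rearrangement, and the 9 factors act at successive steps of that path. E proteins are basic helix-loop-helix activators that favour the B and T cell fates, and Id2 and Id3 lack a DNA-binding region and hold E proteins inactive. Nfil3 is a basic leucine zipper factor needed early for NK cell and other innate lymphoid progenitors. Tox and TCF-1, the product of Tcf7, are high mobility group (HMG) box proteins of the early progenitors. Gata3 is a zinc finger factor of T cells and of helper-like innate lymphoid cells, Bcl11b a zinc finger factor of T cell commitment and of group 2 innate lymphoid cells. Ets1 and Runx3 belong to the Ets and the Runt families, and both take part in NK cell maturation.

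Ncr1, which encodes NKp46, Klrb1c, which encodes NK1.1, and Ptprc, which encodes CD45, were detected on all 6 arrays. Spleen arrays gave Ncr1 signals of 88.2 and 52.9, intestine arrays 10.8 and 14.7, skin arrays 33.1 and 32.4. Klrb1c read, by tissue in that order, 2311 and 2071, 978 and 1073, then 2125 and 2003. By limma, intestine was lower than spleen for Ncr1 (-1.23, adjusted p = 0.00046) and Klrb1c (-1.03, adjusted p = 0.00033). Skin against spleen passed for neither (-0.53 and -0.05) under quantile normalization. With median scaling or the deposited scaling Ncr1 was lower in skin (-0.87 and -0.80, limma adjusted p = 0.0056 and 0.0088), and Klrb1c did not pass. Cd3e, a chain of the T cell receptor complex, was detected on none. Transcripts of the other CD3 chains, Cd3g and Cd3d, were detected on all 6, with Cd3g at 109 and 81.4 on the spleen arrays, 312 and 596.8 on those of intestine, and 54.6 and 59.4 on those of skin, and Cd3d between 107.5 and 203. A probe of Rag2 was detected on 4 arrays at signals of at most 13.2, and where in the transcript it lies relative to the deletion is not given, so it does not check the genotype. The arrays detected 32.6% to 39.7% of all probes, the spleen arrays the most, so dim probes were measured less well in intestine and skin. Erythroid markers summed to 11620 to 17495 signal units in spleen against 697 to 1112 in intestine and 785 to 1023 in skin. Markers of macrophages, monocytes and dendritic cells summed to 359.7 to 393 in spleen, 24.0 to 28.7 in intestine and 67.2 to 70.7 in skin. The part of other cells in the results was not tested. In such bulk samples fewer cells of a type and less RNA per cell cannot be told apart.

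Signals are given as deposited, in arbitrary intensity units with background subtracted and the mean of every array set to one value, in the order replicate I and replicate II. Differences are on the scale of log2(signal + 16) after quantile normalization, which understates changes of dim probes, with the SE of the limma fit over all 6 arrays. Adjusted p-values are limma's, adjusted by Benjamini-Hochberg over all 18187 probes, and a probe passed at under 0.05. Each probe has its own brightness, so levels are compared between tissues and not between probes.

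**Figure D1:**
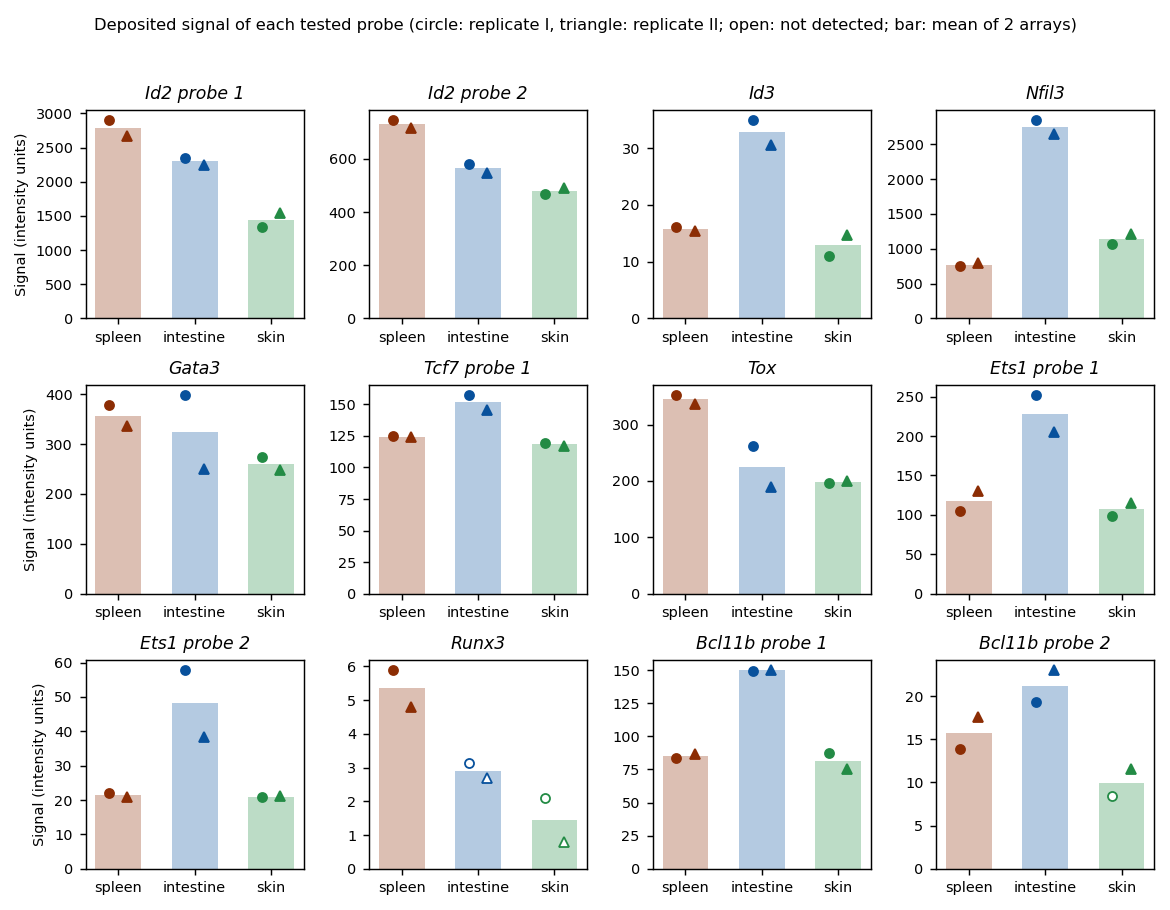
Deposited signal (vertical axis, intensity units, each panel with its own range from 0) of the 12 tested probes in spleen, intestine and skin; circles are replicate I, triangles replicate II, open symbols arrays on which the probe was not detected, and bars the mean of the 2 arrays. Nfil3, Id3, Tcf7, Ets1 and Bcl11b probes stand highest in intestine, Id2 and Tox probes highest in spleen, Runx3 was detected on the spleen arrays alone, and the Gata3 intestine arrays lie far apart, at 399 and 250.4.

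Against spleen, the intestine samples had higher signals of Nfil3, Ets1, Bcl11b, Id3 and Tcf7, and no factor passed as lower, under quantile normalization. With median scaling or the deposited scaling Tcf7 did not pass, and 2 probes, of Tox and Id2, passed as lower. Of all 18187 probes 7938 and 7677 passed as lower with these scalings, against 5054 with quantile normalization. Of the 12 probes, 7 passed as higher, 0 as lower and 5 did not pass with quantile normalization. Across all probes tested 47.7% passed in this comparison, 20% as higher and 27.8% as lower. By gene, each taken at its brightest tested probe, 5 of 9 were higher and 4 did not pass, with a median difference of 0.68 against -0.04 for all genes, of which 20.5% passed as higher. At an unadjusted limma p under 0.05, 7 probes were higher and 1 (the brighter Id2 probe) was lower, against 24.0% and 31.8% of all probes. On normalized values all 4 pairs of an intestine and a spleen array ran upward for 7 probes and downward for 4 (34.5% and 42.7% of all probes). Between intestine and skin 8 of 12 probes (6 of 9 genes) passed as higher in intestine and 0 as lower (8 and 0 at an unadjusted limma p under 0.05, against 20.5% and 25.0% of all probes), where 36.5% of all probes passed, 16.6% as higher in intestine and 19.9% as lower. Between skin and spleen 1 probe passed as higher in skin, 3 as lower and 8 did not pass, where 22.8% of all probes passed, 10.8% as higher and 12% as lower. By gene 1 passed as higher in skin (Nfil3) and 2 as lower (Id2 and Tox), and only 1 (Id2) passed in all without replicate 1 or 2 of spleen or replicate 2 of skin. These 3 comparisons share samples and are not independent of each other.

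**Figure D2:**
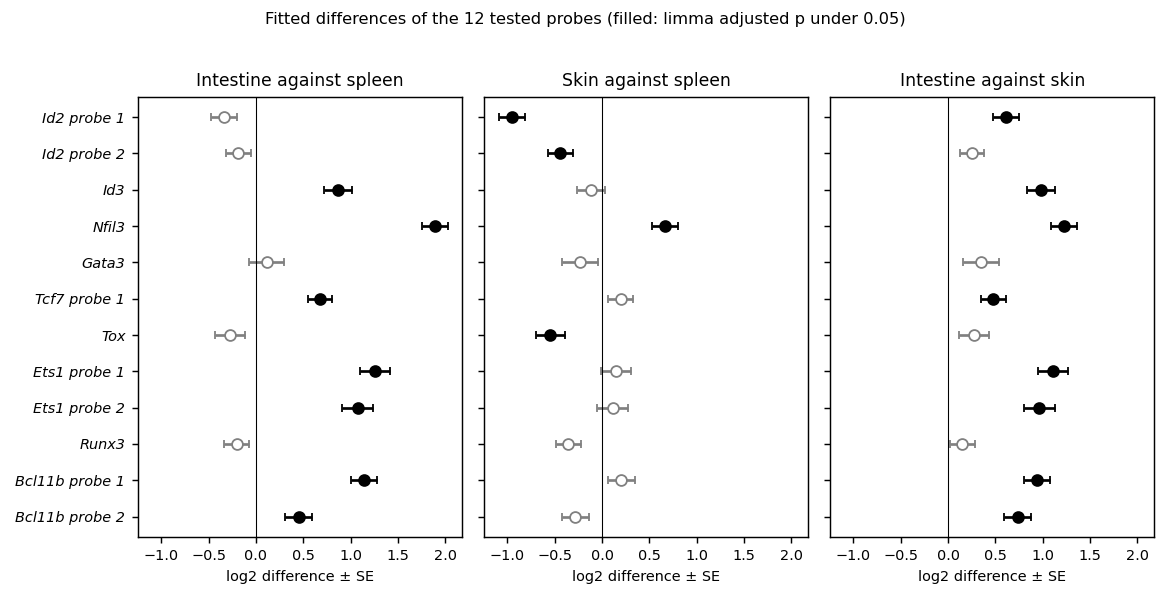
Fitted log2 difference (horizontal axis) with its SE (bars) of the 12 tested probes in each comparison; filled points passed at a limma adjusted p under 0.05. In intestine against skin every point lies above 0 and 8 are filled, whereas in skin against spleen 4 are filled, 1 above 0 (Nfil3) and 3 below (Tox and both Id2 probes).

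Id2 and Id3, the antagonists of the E proteins, differed in their order over the tissues. The 250 bases before the RefSeq start of each gene (assembly GRCm38.p6) are shown because the pair acts on the same partners while its RNA levels ran differently. The Id2 stretch is chr12:25096093-25096342, minus strand, and the Id3 stretch chr4:136143572-136143821, plus strand, both outside the transcribed gene. Capitals mark matches, on either strand, of 6 motifs: the E box CANNTG that E proteins bind, CCGGAA (Ets), TGTGGT (Runx), AGATAA for the Gata factors, then CTTTGA for TCF-1 and LEF-1, then TTANGTAA for Nfil3 and its relatives.
Id2: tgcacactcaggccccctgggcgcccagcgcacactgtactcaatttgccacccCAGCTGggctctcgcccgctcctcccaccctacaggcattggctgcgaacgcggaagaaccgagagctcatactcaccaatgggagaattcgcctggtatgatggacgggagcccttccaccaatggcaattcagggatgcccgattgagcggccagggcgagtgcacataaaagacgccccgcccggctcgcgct
Id3: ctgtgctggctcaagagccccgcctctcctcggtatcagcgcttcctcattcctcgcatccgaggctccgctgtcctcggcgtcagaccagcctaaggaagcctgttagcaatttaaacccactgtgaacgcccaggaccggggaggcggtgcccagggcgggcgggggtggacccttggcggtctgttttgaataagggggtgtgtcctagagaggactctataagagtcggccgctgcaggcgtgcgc
The Id2 stretch held 1 E box, CAGCTG, and no letters of the other 5 motifs. The Id3 stretch held none of the 6. Among 32536 mouse promoter stretches of this length, 66.2% held an E box, 12.1% the Ets, 14.0% the Runx, 9.97% the GATA, 13.9% the TCF-1 and 2.03% the Nfil3 letters. A match describes the letters only.

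Id2, which NK cells and all other innate lymphoid cells need, was lower in skin. Its brighter probe (104200168) read 2909.8 and 2669.9 on the spleen arrays, 2351 and 2247 on those of intestine, and 1341 and 1538 on those of skin. The tissues did not overlap: both spleen arrays stood above both intestine arrays and these above both skin arrays. By limma, skin was 1.93-fold lower than spleen (-0.95 ± 0.14, adjusted p = 0.0024) and intestine 1.53-fold higher than skin (0.61 ± 0.14, adjusted p = 0.0059). The step from intestine to spleen did not pass (-0.34 ± 0.14, 95% interval -0.64 to -0.03, limma adjusted p = 0.066). The second Id2 probe (870324) read 747.7 and 714.7 on the spleen arrays, 581 and 547 on those of intestine, and 469.5 and 491 on those of skin, in the same order. Its skin difference was -0.44 ± 0.13 (limma adjusted p = 0.0375), and this call was lost when any spleen or skin array was left out, up to an adjusted p of 0.24. Its other differences did not pass, at -0.19 between intestine and spleen and 0.25 between intestine and skin.

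Id3 was dim and highest in intestine. Its probe (6450403) gave 16.1 and 15.4 on the spleen arrays, 35.0 and 30.5 on those of intestine, and 11.0 and 14.7 on those of skin, and was detected on all 6 arrays. Both intestine arrays stood above all other arrays, and both skin arrays just below both spleen arrays. Intestine was 1.82-fold above spleen (0.87 ± 0.15, limma adjusted p = 0.00099) and 1.97-fold above skin (0.98 ± 0.15, limma adjusted p = 0.00059). Skin and spleen differed by -0.11 (95% interval -0.44 to 0.21, limma adjusted p = 0.59), and this difference had the other sign on slide 2 (0.02).

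Nfil3 had the largest difference of the 9 genes. Its probe (4070377) read 751.0 and 792 on the spleen arrays, 2853 and 2647 on those of intestine, and 1068 and 1212 on those of skin. The 3 tissues did not overlap, with spleen lowest and intestine highest. Intestine exceeded spleen 3.70-fold (1.89 ± 0.14, limma adjusted p = 4.6e-06), which ranked 288 from the highest among 13455 genes. It exceeded skin 2.34-fold (1.22 ± 0.14, limma adjusted p = 9.3e-05). Skin exceeded spleen 1.58-fold (0.66 ± 0.14, limma adjusted p = 0.0107). That last call was lost without replicate 1 of spleen (adjusted p = 0.129), replicate 2 of spleen (0.0852) or replicate 2 of skin (0.0508).

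Of the HMG box factors, Tcf7 was higher in intestine under quantile normalization and Tox was lower in skin. The tested Tcf7 probe (5390181) gave 125 and 124 on the spleen arrays, 158 and 146 on those of intestine, and 119.6 and 117 on those of skin, a narrow range in which the tissues did not overlap. The intestine difference was 1.60-fold against spleen (0.68 ± 0.13, limma adjusted p = 0.0021) and 1.39-fold against skin (0.48 ± 0.13, limma adjusted p = 0.0157). Both calls depended on the scaling of the arrays: with median scaling they were 0.23 (adjusted p = 0.18) and 0.36 (adjusted p = 0.0594), and the second was also lost without replicate 2 of skin (adjusted p = 0.0645). Skin against spleen was 0.20 (adjusted p = 0.287). A second Tcf7 probe (3800736) was detected on no array, at signals of -0.358 to 4.20, and was not tested.

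Tox gave 353 and 337 on the spleen arrays, 262 and 189 on those of intestine, and 197 and 201 on those of skin (probe 3440053). Spleen stood above every other array, while the intestine arrays enclosed the skin arrays. Skin was 1.46-fold below spleen (-0.55 ± 0.16, limma adjusted p = 0.0344), a call lost when any spleen or skin array was left out, up to an adjusted p of 0.206. Intestine against spleen was -0.27 ± 0.16 (limma adjusted p = 0.175), and passed as lower with median scaling (-0.63, adjusted p = 0.0085), with the deposited scaling (-0.60, adjusted p = 0.0083) and without replicate 1 of intestine (-0.47, adjusted p = 0.0235). Intestine against skin was 0.27 (adjusted p = 0.203) and passed without replicate 2 of intestine (0.47, adjusted p = 0.0263).

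Ets1 was read by a pair of tested probes with the same order. The brighter one (5270278) gave 105.3 and 131 on the spleen arrays, 252 and 205 on those of intestine, and 99.1 and 115 on those of skin. The other (6620465) gave 22.1 and 20.8 on the spleen arrays, 57.9 and 38.4 on those of intestine, and 20.9 and 21.0 on those of skin. On both, each intestine array stood above all spleen and skin arrays, and spleen and skin signals overlapped. On the brighter probe intestine exceeded spleen 2.39-fold (1.26 ± 0.16, limma adjusted p = 0.00016) and skin 2.16-fold (1.11 ± 0.16, limma adjusted p = 0.00043). The second gave 1.07 ± 0.16 and 0.96 ± 0.16, with limma adjusted p-values of 0.00052 and 0.0013. Skin against spleen was 0.14 (95% interval -0.21 to 0.50) and 0.11 (-0.25 to 0.48), without passing. Another Ets1 probe (6450717) was detected on 1 array of each tissue, at signals of -0.398 to 13.0, and was not tested.

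Runx3, which with its partner Cbfb shapes NK and cytotoxic cell maturation, was near the limit of the arrays. Its probe (3800546) gave 5.89 and 4.80 on the spleen arrays, 3.14 and 2.68 on those of intestine, and 2.08 and 0.786 on those of skin. It was detected on both spleen arrays and on no other. The fitted differences did not pass, at -0.20 for intestine and -0.35 for skin against spleen (limma adjusted p = 0.227 and 0.0772), and the skin value passed with an offset of 8 (-0.61, adjusted p = 0.0385) and with 1 intestine array left out (adjusted p = 0.0441 for either). Since the probe was not detected in intestine or skin, these values bound no fold, and nothing follows from this probe about the level of Runx3 there.

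Of the zinc finger factors, Bcl11b was higher in intestine on both probes that carry its symbol, and Gata3 did not pass in any comparison. A clone-named probe listed as a synonym of Bcl11b, not counted as a member, was lower in intestine than in spleen (-0.50, limma adjusted p = 0.0279). The brighter Bcl11b probe (2680673) gave 83.6 and 86.7 on the spleen arrays, 149.7 and 150.2 on those of intestine, and 87.6 and 75.2 on those of skin. Spleen and skin overlapped, and both intestine arrays were higher. The difference was 2.21-fold against spleen (1.14 ± 0.14, limma adjusted p = 0.00013) and 1.91-fold against skin (0.94 ± 0.14, limma adjusted p = 0.00056). The dimmer probe (106860278) gave 13.9 and 17.5 on the spleen arrays, 19.3 and 23.0 on those of intestine, and 8.40 and 11.6 on those of skin, where replicate I was not detected. It differed by 0.73 ± 0.14 between intestine and skin (limma adjusted p = 0.0029). Its difference of 0.45 ± 0.14 from spleen (limma adjusted p = 0.0265) was lost with both other scalings, without any filter, and without replicate 1 (adjusted p = 0.195) or 2 (0.0878) of spleen or replicate 2 of intestine (0.0754).

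Gata3 gave 378 and 336 on the spleen arrays, 399 and 250.4 on those of intestine, and 274 and 247 on those of skin (probe 6130068). The 2 intestine arrays enclosed all other arrays but 1 of skin. The differences were 0.11 ± 0.19 for intestine against spleen (95% interval -0.30 to 0.53, limma adjusted p = 0.635), -0.23 ± 0.19 for skin against spleen (-0.65 to 0.18, adjusted p = 0.375) and 0.35 ± 0.19 for intestine against skin (-0.07 to 0.76, adjusted p = 0.179). The intestine and skin value passed without replicate 2 of intestine (0.62, adjusted p = 0.0125), and the sign against spleen turned without replicate 1 of intestine (-0.16).

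How the arrays were scaled moved the size of most of these differences. Under quantile normalization the median of all probes in intestine against spleen was -0.07, and 41.8% of the probes that passed were higher. With each array scaled to its median instead, the probe median was -0.30 and 22.5% of the passing probes were higher, and with the deposited scaling alone -0.27 and 24.6%. Under both, 5 member probes passed as higher in intestine than in spleen and 2 as lower (Tox and the second Id2 probe), in place of 7 and 0. Of all 18187 probes 2310 passed as higher and 7938 as lower with median scaling, in place of 3629 and 5054. With the deposited scaling 2510 passed as higher and 7677 as lower. Nfil3 (1.78 and 1.81), both Ets1 probes (0.73 to 0.87), the brighter Bcl11b probe (0.69 and 0.72) and Id3 (0.59 and 0.62) passed as higher with either scaling, and Tcf7 (0.23 and 0.26) did not. In skin against spleen the shares were 47.3%, 22.0% and 30.7%, and in intestine against skin 45.6%, 37.0% and 33.2%. The deposited signals of Tcf7, of both Ets1 probes and of the brighter Bcl11b probe had a lower mean in skin than in spleen, while their quantile-normalized means were higher in skin by 0.11 to 0.21, without passing. In skin against spleen the same counts of members passed with all 3 scalings, 1 as higher and 3 as lower. Of all 18187 probes 4151 passed there with quantile normalization, 6900 with median scaling and 6201 with the deposited scaling.

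**Figure D3:**
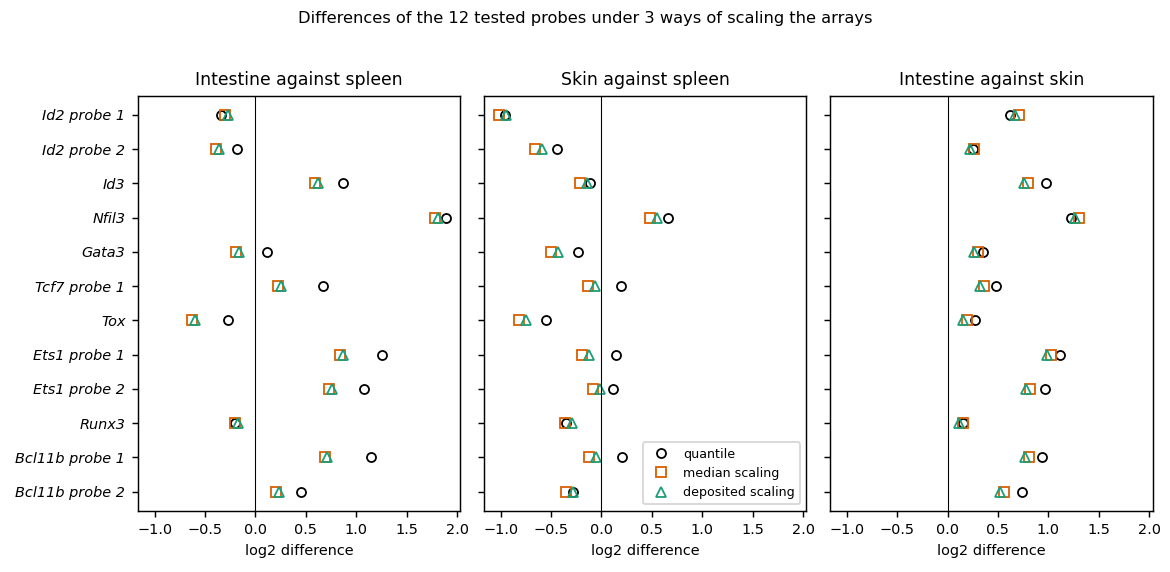
Log2 difference (horizontal axis) of the 12 tested probes after quantile normalization (circles), median scaling (squares) and the deposited scaling alone (triangles). In intestine against spleen Nfil3 moves little, from 1.89 to 1.78, whereas Tcf7 falls from 0.68 to 0.23 and Gata3 crosses 0; in intestine against skin all 12 probes stay above 0.

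Over the 6 arrays the brightest probes of Nfil3, Tcf7, Bcl11b, Ets1 and Id3 followed a like pattern. Correlations are given as descriptions over 6 points that share tissue, slide and normalization. The normalized levels of Nfil3 and Tcf7 correlated at r = 0.99, Nfil3 and Bcl11b at 0.97, and Tcf7 and Bcl11b at 0.99. Ets1 correlated at 0.96 with each of Id3, Nfil3, Tcf7 and Bcl11b. Id2 correlated with Tox at 0.88 and with Id3 at 0.28, and Runx3, detected on the spleen arrays alone, is left out. Gata3 ranged from 0.28 with Nfil3 to 0.71 with Tox. Tox gave -0.31 with Nfil3, -0.22 with Tcf7 and 0.14 with Id3. Among 6324 genes that varied by an SD of at least 0.3, the genes nearest Nfil3 were Litaf, Pdgfa and Hnrnpa1 (each r = 0.999). Litaf, a lysosomal membrane protein, read 408 and 458 on the spleen arrays, 9707 and 9756 on those of intestine, and 1122 and 1379 on those of skin. The genes nearest Id2 were Scaf4 (0.989), Zfp827 (0.987) and Utrn (0.982), and nearest Tox Nipal1 (0.986), Cd9 (0.983) and Ergic2 (0.976). Those nearest Ets1 were Rsbn1l, Bcl10 and Cntf, those nearest Bcl11b Ddx28, Ppme1 and Gdpd5, and those nearest Id3 Samd8 and a pair of clone-named transcripts, at 0.998 to 0.999. Those nearest Tcf7, LOC384646, Rusc1 and C430049K18Rik, reached the same range.

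The relatives, partners and co-acting factors of the 9 genes moved in both directions. Of 79 such genes in 7 lists, 60 were tested. In intestine against spleen 24 were higher, 21 lower and 15 did not pass (18 higher and 28 lower with either other scaling). With quantile normalization 48.3% of all genes passed there, 20.5% as higher and 27.8% as lower. With median and deposited scaling 2310 and 2510 of all 18187 probes passed as higher, and 7938 and 7677 as lower. In intestine against skin 23 of the 60 were higher, 13 lower and 24 did not pass. Of all genes 38.2% passed there, 16% as higher and 22.2% as lower. In skin against spleen 23.1% of all genes passed with quantile normalization, 12.3% as higher and 10.8% as lower. Of all 18187 probes 4151 passed (47.3% of them higher), 6900 with median scaling (22.0%) and 6201 with the deposited scaling (30.7%). Of the related genes 6 were higher, 13 lower and 41 did not pass (5 and 26 with median scaling, 5 and 21 with the deposited scaling). The number that passed there was 3 without replicate 1 of spleen and 1 without replicate 2, and 8 and 11 without replicate 1 and 2 of skin.

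The E proteins, which Id2 and Id3 hold inactive, differed among themselves. Of 4 tested genes of this list 2 were lower in intestine than in spleen and 1 was higher, the latter with quantile normalization only. Across all genes 27.8% passed as lower there and 20.5% as higher. Tcf3, which encodes E2A, read 133 and 131 in spleen, 42.9 and 54.4 in intestine, and 122 on each of skin, and was lower in intestine than in spleen (-0.78 ± 0.14, limma adjusted p = 0.0016) and skin (-0.94, adjusted p = 0.00066). Its other, dimmer probes gave -0.28 and 0.09 against spleen and did not pass. Tcf4 was lower than in spleen in both intestine (-0.59, limma adjusted p = 0.0050) and skin (-0.64, adjusted p = 0.011), with -0.07 in intestine on a second probe. The intestine call was lost without replicate 2 of spleen (adjusted p = 0.0616), and the skin call without either spleen array or replicate 1 of skin (up to 0.118). Tcf12, which encodes HEB, was higher in intestine than in skin (0.90 ± 0.14, limma adjusted p = 0.00061). Its value against spleen of 0.40 (adjusted p = 0.0358) turned to -0.05 with median scaling and -0.02 with the deposited scaling. Id4, another Id protein, read 5.29 and 8.11 in spleen and 24.8 and 14.7 in skin, a difference of 0.61 (limma adjusted p = 0.0285) that was lost without either spleen array or replicate 1 of skin, up to an adjusted p of 0.21.

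Lef1, the closest relative of Tcf7, ran the other way. Its brightest probe read 57.2 and 85.1 on the spleen arrays, 13.6 and 12.7 on those of intestine, and 18.9 and 17.8 on those of skin. It was 2.37-fold lower in intestine (-1.24 ± 0.17, limma adjusted p = 0.0003) and 2.15-fold lower in skin than in spleen (-1.10 ± 0.17 by limma, with an adjusted p of 0.0036), the latter lost without replicate 2 of spleen (adjusted p = 0.0522). Other Lef1 probes gave -0.81 and 0.28 in intestine. Tox4, a relative of Tox, was higher in intestine than in skin (0.75, limma adjusted p = 0.0052). Of the 4 HMG box genes tested 2 passed as lower than in spleen in intestine (Lef1 and Sox4) and 3 in skin (Lef1, Sox4 and Tox4), and each of these calls but that of Lef1 in intestine was lost with at least 1 array left out. Across all genes 27.8% passed as lower than in spleen in intestine and 10.8% in skin. Tef, of the PAR family related to Nfil3, was lower in intestine than in spleen (-0.56, limma adjusted p = 0.0092), with -0.12 and 0.25 on its other probes, and the call was lost without replicate 2 of spleen (adjusted p = 0.110). Dbp did not pass (-0.21, limma adjusted p = 0.249), but was lower with median scaling (-0.66, adjusted p = 0.0021) and the deposited scaling (-0.63, adjusted p = 0.0032).

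In the Runx and Ets families 4 of 13 tested genes were higher in intestine than in spleen and 6 were lower (3 and 8 with either other scaling). Across all genes 20.5% passed as higher there and 27.8% as lower with quantile normalization. With median and deposited scaling 2310 and 2510 of all 18187 probes passed as higher, and 7938 and 7677 as lower. Ets2 read 56.9 and 61.0 on the spleen arrays, 372 and 295 on those of intestine, and 112 and 109 on those of skin, and exceeded its spleen level 5.87-fold in intestine (2.55 ± 0.14, limma adjusted p = 1e-06). Skin exceeded spleen too (1.02, limma adjusted p = 0.0021). Etv3 (1.54, limma adjusted p = 2.8e-05) was higher as well, and Elk3 (-1.26, adjusted p = 6.8e-05) and Elf4 (-1.14, adjusted p = 0.00016) were lower. Elf4 on its dimmer probe differed by 0.46 between intestine and skin, against -1.36 on its brighter one. Among genes outside the naming rule, picked after their values were seen, Cbfb, the partner of Runx proteins, was lower in intestine than in spleen (-0.76, limma adjusted p = 0.0013), and so was Runx1 (-0.72, limma adjusted p = 0.0054, and 0.0521 without replicate 1 of spleen). In skin against spleen 1 of the 13 was higher and 1 lower (1 and 5 with median scaling, 1 and 4 with the deposited scaling), the latter Elk4 (-0.69, limma adjusted p = 0.0187, and up to 0.162 with an array left out). Across all genes 12.3% passed as higher in skin and 10.8% as lower with quantile normalization. Of all 18187 probes 6900 passed with median scaling (22.0% of them higher) and 6201 with the deposited scaling (30.7%), against 4151 (47.3%).

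Zbtb16, which encodes PLZF of innate lymphoid precursors, read 14.2 and 17.2 on the spleen arrays, 36.1 and 25.2 on those of intestine, and 7.33 and 10.6 on those of skin. It was higher in intestine than in spleen (0.78 ± 0.16, limma adjusted p = 0.0034) and skin (1.13 ± 0.16, limma adjusted p = 0.00051). Zfpm1, the Gata cofactor Fog1, was lower in intestine than in spleen (-0.51, limma adjusted p = 0.0176, and 0.209 without replicate 2 of spleen).

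Of 24 tested lineage factors 15 were higher and 6 lower in intestine than in spleen (12 and 8 with either other scaling), with a median of 0.70. Across all genes 20.5% passed as higher there and 27.8% as lower with quantile normalization. With median and deposited scaling 2310 and 2510 of all 18187 probes passed as higher, and 7938 and 7677 as lower. Rora, a nuclear receptor of helper-like innate lymphoid cells, read 108 and 157 on the spleen arrays, 2093 and 1445 on those of intestine, and 56.8 and 56.0 on those of skin. Intestine exceeded spleen 14.1-fold (3.81 ± 0.20, limma adjusted p = 7.4e-07). Ikzf2, which encodes Helios, was 7.54-fold higher (2.91 ± 0.21, limma adjusted p = 4.4e-06). Zeb2, a factor of terminal NK cell maturation, was lower in intestine (-2.23 ± 0.14, limma adjusted p = 2.4e-06) and in skin (-0.97, limma adjusted p = 0.0028, and 0.0521 without replicate 2 of spleen). In skin Myb was higher than in spleen (1.02, limma adjusted p = 0.0056), lost without either spleen array (up to 0.0568). Maf was higher in intestine than in skin (1.55, limma adjusted p = 1.5e-05).

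Of 10 receptors and signalling genes upstream of these factors 3 were higher and 3 lower in intestine than in spleen (2 and 4 with either other scaling). The counts with quantile normalization are near its shares of all genes, 20.5% higher and 27.8% lower. With median and deposited scaling 2310 and 2510 of all 18187 probes passed as higher, and 7938 and 7677 as lower. Il7r, the receptor of the cytokine that most helper-like innate lymphoid cells depend on, read 244 and 292 on the spleen arrays, 643 and 656 on those of intestine, and 166 and 107 on those of skin. Intestine exceeded spleen 2.83-fold (1.50 ± 0.19, limma adjusted p = 0.00019) and skin 4.54-fold (2.18 ± 0.19, limma adjusted p = 2.2e-05). Stat5a, which carries the signal of that receptor, was higher too (0.87, limma adjusted p = 0.00075), and Jak1 was lower (-0.98, limma adjusted p = 0.0014). Notch1 was lower in intestine than in skin (-0.58, limma adjusted p = 0.0121), lost without replicate 2 of skin (adjusted p = 0.0664).

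**Figure D4:**
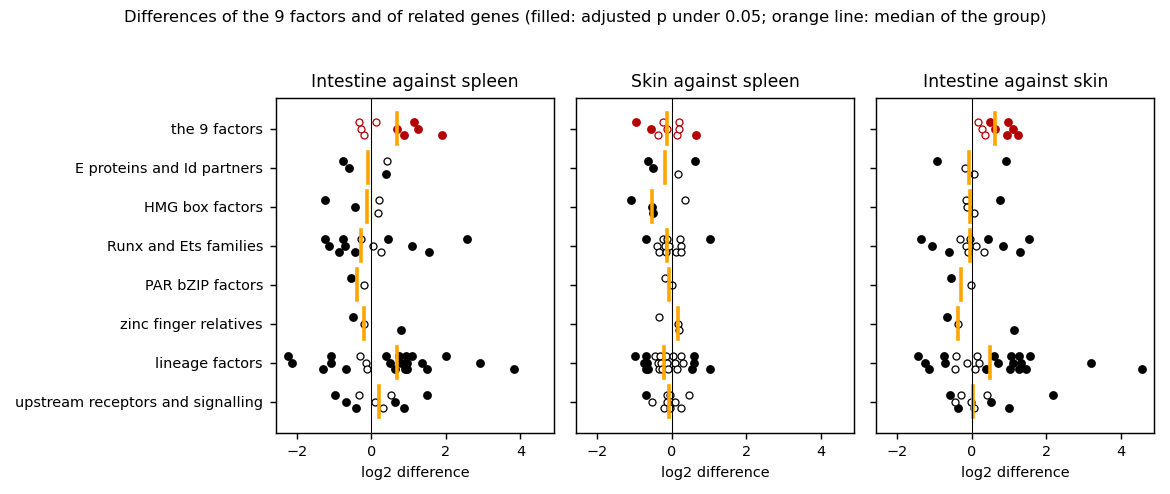
Log2 difference (horizontal axis) of the 9 factors, each at its brightest tested probe, and of the tested genes of 7 lists; filled points passed at a limma adjusted p under 0.05, and orange lines mark the median of a group. The 9 factors have a median of 0.68 in intestine against spleen and -0.11 in skin against spleen, and the lineage factors spread from -2.23 (Zeb2) to 3.81 (Rora) in the first of these.

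Markers of cell types differed between intestine and spleen in both directions, where 20.5% of all genes passed as higher and 27.8% as lower. Of those tested in intestine against spleen, all 4 erythroid markers were lower, and so were 6 of 7 of macrophages, monocytes and dendritic cells. Of 13 T cell markers 5 were detected on no array (Cd3e, Cd4, Cd5, Cd6 and Themis), and the list summed to 763 to 858 in spleen, 1422 to 1632 in intestine and 796 to 903 in skin. Of the 8 tested, 5 were higher in intestine than in spleen (Cd3g, Cd8a, Ctla4, Icos and Trat1), 1 lower (Cd8b1) and 2 did not pass. Group 2 innate lymphoid cell markers summed to 10.7 to 13.6 in spleen, 30.0 to 30.7 in intestine and 19.5 to 28.1 in skin, with Il5, Il9r and Il17rb detected on no array. Group 3 markers summed to 19.0 to 23.4, 24.6 to 53.4 and 16.7 to 25.4, with Il22, Il23r, Il17f, Ccr6 and Cxcr5 detected on none. NK cell markers summed to 20026 to 20464 in spleen, 11333 to 13123 in intestine and 19339 to 20629 in skin, with Gzmb detected on none, and all 7 tested were lower in intestine than in spleen. Gut epithelium markers summed to 7.64 to 14.2 in spleen, 76.9 to 112.8 in intestine and 24.2 to 32.02 in skin, with Cdh1 higher in intestine than in spleen (2.70, limma adjusted p = 1.8e-06) and Epcam, Fabp1, Fabp2, Krt8 and Krt19 detected on no array. Fibroblast markers summed to 7.57 to 8.19, 25.7 to 54.4 and 26.6 to 51.6, with Col1a1, Col1a2 and Col3a1 detected on none. The T cell list is read here as transcripts only, since RAG-2-KO mice lack T cells and the cells were sorted as CD3-. The part of other cell types in the higher Nfil3, Ets1, Bcl11b, Id3 and Tcf7 signals of intestine was not tested.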

How the data were processed

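Gene expression of 6 sorted mouse cell samples was measured on Illumina arrays, scanned with software that the submitters' processing notes name as BeadStudio 1.5.1.3. Per the file headers, the deposited tables hold an average signal intensity and a detection p-value for each of 46643 probes. The deposited intensities were already background-subtracted, with 30.7% to 32.7% of probes below 0, and scaled to a mean of 83.1 on every array, and how either step, or the deposited detection p-value, was computed was not given in the sources used here. The series' value table holds the same intensities times a constant per array. This constant was 1.65 and 1.58 for spleen, 0.99 and 0.61 for intestine, and 0.53 and 0.64 for skin. It was thus larger for both spleen arrays than for any other. No depth applies to arrays, and their number limits the precision.

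The 9 genes, the lists of related genes and the tests were chosen with earlier results of these data known. As planned for signals that are already corrected, 16 was added, log2 taken and the arrays quantile normalized. Probes were kept if any tissue had both arrays with a detection p-value under 0.01. The 1727 probes without a symbol entered normalization but no test. limma 3.58.1 in R 4.3.3 fitted a mean per tissue over all 6 arrays (3 residual degrees of freedom, prior 6.93, prior SD 0.15), with Benjamini-Hochberg adjustment over 18187 probes, and recovered seeded changes in simulated data. Symbols and promoter stretches came from RefSeq tables of assembly GRCm38.p6, with promoters for 7 of the 9 genes.

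The text names all 9 members, per list and comparison up to 3 passing genes with the largest difference, or the 2 with the highest mean where none passed, and the 3 genes most correlated with each member that passed. For length, part of the genes that rule gives are described. Array names put replicate I of every tissue on slide 1 and replicate II on slide 2. Deviations from the tissue means of same-numbered arrays correlated at 0.144 (spleen and intestine), 0.196 (spleen and skin) and 0.110 (intestine and skin) over 18187 probes. The main fit did not pair the samples, and a fit with the slide as replicate block was run as an alternative. With groups of 2 no test for outlying samples was run. Alternatives changed the offset, scaling, input table, probe filter, probe rule, variance model and slide block, and left out each array.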

Additional observations from a re-analysis of the deposited data

How the results depend on the processing

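Over 561 pairs of a member probe's difference and an alternative, 510 kept their direction and their side of the threshold, 26 lost the call, 13 gained it and 12 changed sign, all 12 among differences that did not pass. Intestine against spleen turned for Gata3 to -0.19 (median scaling), -0.16 (deposited scaling) and -0.16 (without replicate 1 of intestine). Skin against spleen turned with median and deposited scaling for Tcf7 (-0.13, -0.065), Ets1 (-0.19, -0.12 on the brighter and -0.087, -0.018 on the second probe) and Bcl11b (-0.13, -0.057 on the brighter), and for Id3 without replicate 1 of skin (0.020). With either scaling the order of the 3 tissue means was kept for 7 of 12 probes. In skin against spleen, 2 member probes passed without any filter in place of 4, and over all probes 6900 passed with median scaling and 2225 without any filter in place of 4151; of the related genes 31 passed with median scaling in place of 19.

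With 1 array left out, member probes passing ranged from 6 to 8 in intestine against spleen, 1 to 5 in skin against spleen and 7 to 10 in intestine against skin, and genes from 5 to 6, 1 to 4 and 5 to 8. Over all probes the ranges were 5063 to 8919, 529 to 6279 and 4895 to 7280, lowest in the first 2 comparisons without a spleen array (5063 and 5159, then 532 and 529 without replicate 1 and 2); the second was 1185 and 2420 without replicate 1 and 2 of skin and 6279 without either intestine array. Related genes in skin against spleen ranged from 1 to 24. The Gata3 difference between intestine and spleen ranged from -0.16 to 0.39 and that of Id3 between skin and spleen from -0.25 to 0.020. The order of tissue means was kept for 11 to 12 probes. The lone array left in a tissue is then assumed to vary like the others. The fit with the slide as replicate block changed 0 of the member probes' calls in each comparison, and gave 9333 passing probes in intestine against spleen in place of 8683. The calls of Nfil3, Ets1, Id3 and the brighter Bcl11b probe in intestine against spleen and against skin held with each array left out. Id2 on its brighter probe passed in intestine against spleen with an offset of 32 (adjusted p = 0.0264), with probes detected on all 6 arrays (0.0497) and with an intensity trend (0.0259), against 0.066.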

Other observations

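RefSeq lists a pair of clone names on the array as synonyms of 2 of the 9 genes, and their probes were not counted as members. The array annotation gives them no gene definition, unlike the probes of Idb2 and Idb3. The probe 9130430L19Rik, a synonym of Bcl11b, read 28.3 and 36.5 on the spleen arrays, 14.4 and 10.6 on those of intestine, and 16.8 and 14.6 on those of skin. Its difference between intestine and spleen was -0.50 ± 0.16 (limma adjusted p = 0.0279), against 1.14 and 0.45 on the 2 Bcl11b probes. The differences on the 2 slides were -0.20 and -0.81. Where these probes lie in the gene was not analysed here. The probe D230050P06, a synonym of Ets1, was detected on no array.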
